A study of Mus musculus with 2 samples.

Results

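Close pairs of c-Fos peaks were examined in mesenchymal stem cells from mouse bone marrow that expressed c-Fos and had no p53, a tumour suppressor (p53KO_mBMSCs+cFos). A close pair is 2 neighbouring peaks whose centres lie within 10 kb of each other, with no other peak centre within 10 kb of either. The members were selected on peak position alone: peaks of chromosomes 1 to 19 and X were sorted by centre, neighbours within 10000 bp were joined into runs, and the runs of exactly 2 peaks were kept. This gave 1070 pairs, that is, 2140 of the 10870 peaks in the list (19.7%). A further 825 peaks lay in the 241 runs of 3 or more, 7885 stood alone, and 20 lay on sequence outside these chromosomes. Score and width were not used in the choice, so the spacing of the pairs is given as a description, and their likeness in score and width is the measurement of interest.

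c-Fos is a basic leucine zipper protein that binds DNA as a dimer with a Jun protein, and the dimer is called AP-1. AP-1 sites are found at promoters and, more often, at distal enhancers, where several short sites for the same factor can lie near each other. In cells of the bone lineage, c-Fos is known as a driver of bone tumours in mice, and the title of the series links these cells to Sox9, a regulator of cartilage formation, and to chondroblastic osteosarcoma. A pair of peaks a few kb apart can be 2 separate binding regions, or 1 broad region that a peak caller reports in 2 pieces. A peak list does not tell these apart.

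The series holds 1 c-Fos ChIP-seq library and 1 library of input DNA, which had not been immunoprecipitated. Both came from the same kind of cell, at fewer than 20 passages, and every cell was p53-deficient and expressed c-Fos, so no cells without c-Fos and no p53-competent cells are compared here. The ChIP used 50000000 fixed cells and 10 ug of anti-c-Fos antibody, and the labels do not say how c-Fos was introduced. A peak list cannot show whether the cells expressed mesenchymal markers. The values below are positions in mm9, widths and the authors' score for each peak, whose scale the file does not state, so it is not read as a peak height. With 1 ChIP library there was no replicate error and no test between conditions. The intervals are 95% intervals that cover counting error within this list, the sequencing depth is unknown, and no gene or DNA sequence was joined to a pair.

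The 2 peaks of a pair lay a median of 4680 bp apart, centre to centre (order-statistic interval 4441.5 to 5028.5 bp, n = 1070 pairs). The lower quartile was 2593 bp and the upper quartile 7130 bp. The closest centres were 693 bp apart and the farthest 9995.5 bp. Spacings of 1 to 2 kb were the most frequent, with 177 pairs (16.5%). Only 15 pairs (1.4%) lay closer than 1 kb, a range in which peaks about as wide as these can hardly lie without touching. From there the number per kb fell to 134 pairs at 2 to 3 kb and 106 at 5 to 6 kb, was 121 at 7 to 8 kb, and was 82 at 9 to 10 kb. The limit of 10 kb did not coincide with a break in the list. All neighbouring peaks of a chromosome, joined or not, numbered 132 at 9 to 10 kb, 119 at 10 to 11 kb and 80 at 19 to 20 kb.

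**Figure D1:**
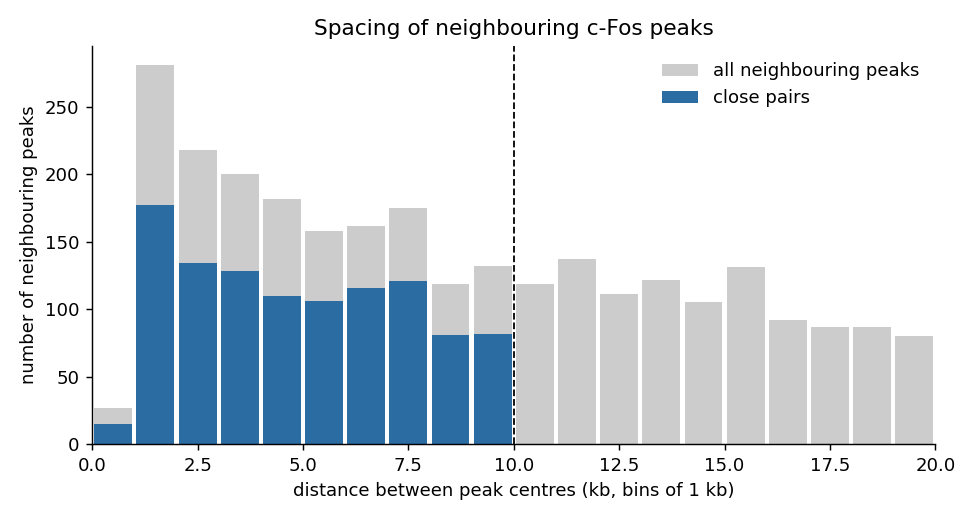
Number of neighbouring c-Fos peaks by the distance between their centres, in bins of 1 kb; blue bars are the close pairs, grey bars behind them are all neighbouring peaks of a chromosome, and the dashed line marks the 10 kb limit. Pairs were most frequent at 1 to 2 kb (177), and the grey bars run on past the limit without a break (132 before it, 119 after it).

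Measured between facing edges, the gap had a median of 3708 bp (3430 to 4063 bp). It ranged from 14 to 9101 bp, and no neighbouring peaks overlapped. Pairs with a gap under 500 bp numbered 102 (9.53%, Wilson interval 7.92 to 11.4), and 23 of those had a gap under 100 bp. From outer edge to outer edge, a pair spanned a median of 5700 bp. Most pairs had another peak centre within 50000 bp. The nearest peak outside the pair was a median of 37126 bp away (34264 to 40683 bp). In 413 pairs (38.6%, 35.7 to 41.6) no other centre lay within 50000 bp, and in 61 (5.70%, 4.46 to 7.26) none lay within 200000 bp. The same shares were not computed for peaks outside pairs, so they are not shown to be particular to pairs.

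The pairs at the limit show what the rule kept and left out. Chromosome 18, with 48 pairs, was not searched for these or for the named pairs below. Just inside it, a pair on chromosome 11 had its peaks at chr11:74636135-74636999 and chr11:74646069-74647056, 9995.5 bp apart, with scores of 55.46 and 94.89. A pair on chromosome 6, at chr6:88713889-88714955 and chr6:88723852-88724969, was spaced 9988.5 bp with scores of 161.75 and 189.07. The third, on chromosome 3 at chr3:57098165-57099067 and chr3:57108053-57109147, was spaced 9984 bp with scores of 50.63 and 213.25. Just outside, neighbours on chromosome 2 lay 10008 bp apart (scores 234.7 and 123.61), neighbours on chromosome 11 lay 10034.5 bp apart (89.51 and 58.13) and neighbours on chromosome 8 lay 10042 bp apart (73.4 and 170.43). The higher score was 1.17 to 4.21 times the lower in the 3 pairs inside the limit and 1.54 to 2.32 times in the 3 outside it.

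By correlation, the 2 peaks of a pair were hardly more alike in score than neighbours farther apart. By the score ratio given below, they were no more alike. Across the 1070 pairs, Spearman's rho between the score of the left and of the right peak was 0.04 (interval by Fisher's transformation -0.02 to 0.10). Pearson's r of the log10 scores was 0.06 (0.004 to 0.12), with an interval just above 0. This r was 0.09 in runs of 3 or more, 0.03 at 10 to 50 kb, 0.01 at 50 to 200 kb and 0.03 over 200 kb. Spearman's rho was 0.02 (-0.01 to 0.06) for 3093 neighbours 10 to 50 kb apart and 0.01 (-0.03 to 0.04) for 3526 neighbours 50 to 200 kb apart. For 2557 neighbours over 200 kb apart, rho was 0.02 (-0.01 to 0.06). In runs of 3 or more peaks it was 0.08 (0.003 to 0.16, n = 584). All of these are close to 0, and the rho interval of the pairs overlaps every other. They are correlations across peaks of 1 library, which share its depth and background. Each peak belongs to only 1 pair, whereas a peak can enter the wider classes with both of its neighbours. The entries of those classes are therefore not independent, and their intervals may be inexact.

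**Figure D2:**
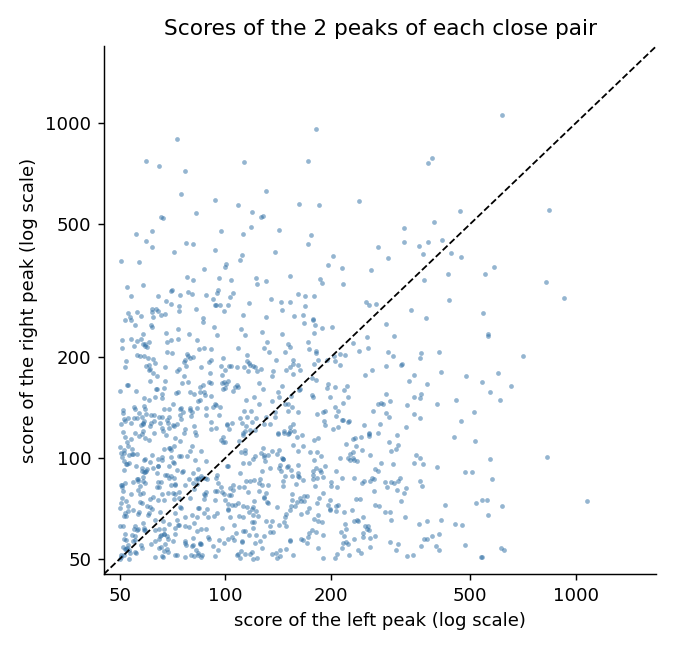
Score of the right peak against the score of the left peak for each of the 1070 close pairs, both on log scales; each point is a pair and the dashed line marks equal scores. The points fill the area on both sides of the line with no visible slope (rho 0.04).

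Pairs of unequal score were common. The higher score was a median of 1.8 times the lower (1.71 to 1.87), with medians of 161.8 for the higher peak (154 to 170) and 75.6 for the lower (73.5 to 78.8). In neighbours 10 to 50 kb apart the ratio was 1.78 (1.73 to 1.83), with medians of 156.7 and 73.5. It was 1.74 (1.71 to 1.78) at 50 to 200 kb and 1.69 (1.65 to 1.73) over 200 kb. Scores lay at most 1.5 times apart in 375 pairs (35.0%, 32.2 to 38.0), against 38.5% of all 10830 neighbouring peaks, and at least 2 times apart in 453 pairs (42.3%, 39.4 to 45.3), against 40.7%. A difference of at least 3 times was found in 222 pairs (20.7%, with 20.7% of all neighbours) and of at least 5 times in 59 (5.51%, 4.30 to 7.05, with 6.24% of all neighbours). The background share for scores at most 1.5 times apart lay just above the interval of the pairs, and the other shares lay within it, so likeness in pairs did not exceed that of other neighbours. The differences between classes were not tested.

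Neither side of a pair was favoured. The left peak scored higher in 533 pairs (49.8%, 46.8 to 52.8), and no pair had equal scores. Both peaks scored at least 100 in 310 pairs (29.0%, 26.3 to 31.8), against 26.1% of all neighbouring peaks. In 534 pairs (49.9%) a peak above that score stood beside a peak below it, against 49.3% of all neighbouring peaks. Both were below it in 226 pairs (21.1%, 18.8 to 23.7), against 24.6% of all neighbouring peaks, which lies above the interval of the pairs. A score of at least 100 was reached by 50.7% of all peaks and by 53.9% of the paired peaks (51.8 to 56.0). The excess of pairs with 2 high scores therefore goes along with a slightly higher share of high scores among paired peaks in general.

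Across 5 groups by score, how high a peak scored said little about its companion. When all peaks of chromosomes 1 to 19 and X were divided into 5 equal groups by score, paired peaks of the lowest group (scores 50.01 to 63.8) had companions with a median score of 103 (93.6 to 114, n = 381). In the next groups the companion's median was 106 (99.3 to 119), 117 (101.5 to 127) and 105 (98.6 to 115). For paired peaks of the highest group (192.33 and over) it was 110 (99.9 to 119, n = 478). The companion's median thus moved by less than its own interval, while the score of the peak itself changed several-fold. For neighbours 10 to 50 kb away it lay between 102 and 109.

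**Figure D3:**
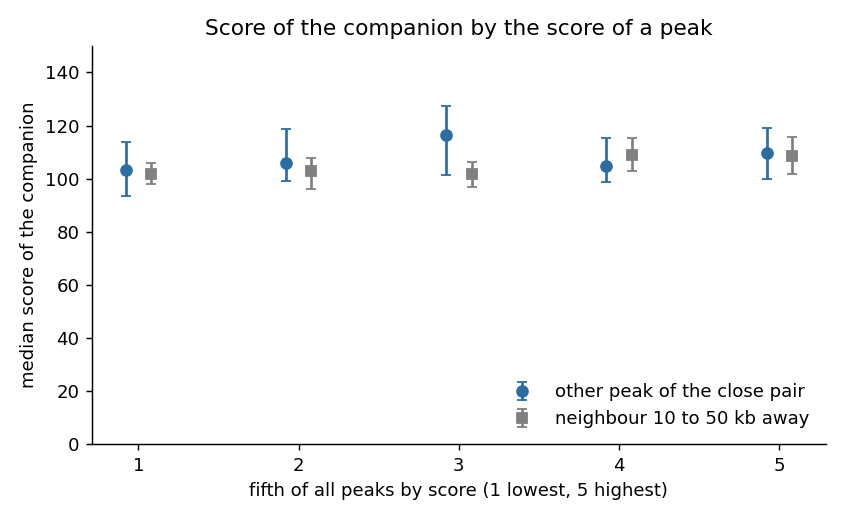
Median score of the companion (vertical axis, in units of the authors' score) by the fifth of all peaks to which a peak belongs; blue circles are the other peak of a close pair, grey squares are neighbours 10 to 50 kb away, and bars are 95% order-statistic intervals. The blue medians stay between 103 and 117 with overlapping bars, and the grey ones between 102 and 109.

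The share of peaks that were in a pair was somewhat larger among high scores. It was 17.6% in the lowest group by score (16.0 to 19.2), 19%, 19.3% and 20.7% in the following groups, and 22.0% in the highest (20.3 to 23.8). Of the 228 peaks that scored at least 500, which are 2.1% of the 10850 peaks, 57 (25%) were in pairs, 19 in longer runs and 152 alone. Their companions had scores from 50.59 to 1060.4, with a median of 128. Of these companions 22 scored under 100, 31 scored from 100 to under 500, and 4 reached 500. Among all paired peaks, 53.9% scored at least 100 and 2.66% at least 500. The companions of these 57 peaks thus leaned somewhat higher, but they are few and the difference was not tested. Paired peaks as a whole had a median score of 107.8 (102.8 to 112.9) and a median width of 961 bp (954 to 968 bp). Peaks that stood alone had 99.0 (97.2 to 100.6) and 945 bp (942 to 948 bp), and peaks of longer runs 110.5 (104.5 to 117.5) and 958 bp (944 to 972 bp). That peaks near another peak score higher was already known from these data when the pairs were chosen for description. Neither the median nor the paired shares by score are therefore independent evidence of it. The intervals of those shares treat peaks as independent although paired peaks come in couples, so they can be too narrow.

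Among the pairs outside chromosome 18 in which both peaks scored high, the first by the lower of its 2 scores was on chromosome 11. Its left peak was at chr11:68850321-68851806 (score 616.27, 1486 bp wide) and its right peak at chr11:68853435-68855800 (score 1060.4, 2366 bp wide). Their centres were 3554 bp apart, and the nearest other peak was 21.7 kb away. Next came a pair on chromosome 13, at chr13:5836282-5837418 (838.94) and chr13:5844029-5845192 (548.52), spaced 7760.5 bp. These are the only 2 pairs in which both peaks reached 500. The third was on chromosome 6, at chr6:88810693-88811803 (467.34) and chr6:88819197-88820326 (547.1), with nearly equal widths of 1111 and 1130 bp. The fourth, at chr15:82987011-82988549 (415.24) and chr15:82996692-82997965 (449.22), was among the wider spaced at 9548.5 bp. The fifth, on chromosome 19 at chr19:21178637-21179968 (439.86) and chr19:21180394-21181784 (410.14), was much tighter, with 425 bp between the facing edges. These 5 pairs were spaced from 1786.5 to 9548.5 bp. Pairs with both scores at least 200 numbered 51 (4.77%, 3.64 to 6.21), against 3.54% of all neighbouring peaks. The share was 6.68% in runs of 3 or more, 3.88% at 10 to 50 kb, 3.06% at 50 to 200 kb and 2.54% over 200 kb. Singly, 21.0% of paired peaks and 18.6% of all peaks scored at least 200. Within pairs, both did in 2.60% of those spaced up to 2 kb, 7.25% at 2 to 4 kb and 6.48% at 4 to 6 kb. It was 3.80% at 6 to 8 kb and 2.45% at 8 to 10 kb, each from 4 to 19 pairs. The differences were not tested.

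The most unequal pairs outside chromosome 18 joined peaks from the top and the bottom of the list. The largest ratio among them, 14.4, was on chromosome 3. There a peak at chr3:123260986-123262161 scored 1075.56 and its companion at chr3:123270098-123271047, centred 8999 bp away, scored 74.61. On chromosome 2, the peak at chr2:11350978-11352002 scored 772.16, and its companion 3794 bp to the left, at chr2:11347327-11348065, scored 59.39, a ratio of 13.0. Also on chromosome 2, chr2:22579276-22580575 scored 897.58 and chr2:22577251-22578094, at 2253 bp, scored 72.61, a ratio of 12.4. The fourth, at 11.7, had its high peak on the left, at chr17:47978845-47980456 (622.93) with chr17:47983537-47984221 (53.06) beside it. The fifth, at 11.6, was chr16:5130638-5131534 (64.65) and chr16:5135684-5137318 (746.81). In each of these 5 pairs the peak of lower score was also the narrower, at 950 bp or less, and its score lay between 53.06 and 74.61.

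By their ratio, widths were alike to about the same degree as in other neighbours. The wider peak was a median of 1.15 times the narrower (1.14 to 1.16), and the same ratio was 1.15 at 10 to 50 kb, 1.15 at 50 to 200 kb and 1.14 over 200 kb. It was at most 1.2 in 645 pairs (60.3%, 57.3 to 63.2) and in 60.6% of all neighbouring peaks. Spearman's rho between the 2 widths was 0.05 (-0.01 to 0.10), against 0.03 at 10 to 50 kb, 0.01 at 50 to 200 kb and 0.07 (0.03 to 0.11) over 200 kb. Pearson's r of the log10 widths was 0.09 in pairs, 0.08 in runs of 3 or more and 0.08 at 10 to 50 kb. It was lower at 50 to 200 kb (0.01) and over 200 kb (0.04), and these differences were not tested. Paired peaks were from 462 to 2749 bp wide. Score and width went together within a pair: the higher-scoring peak was the wider in 819 pairs (76.5%, 73.9 to 79.0), against 74.8% of all neighbouring peaks, with median widths of 1014 bp for the higher-scoring and 909 bp for the lower-scoring peak. Across the 1070 pairs, rho between the ratio of scores and the ratio of widths, both left to right, was 0.68, and it was 0.65 in neighbours 10 to 50 kb apart. This follows the relation over all peaks, where rho of score and width was 0.70.

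**Figure D4:**
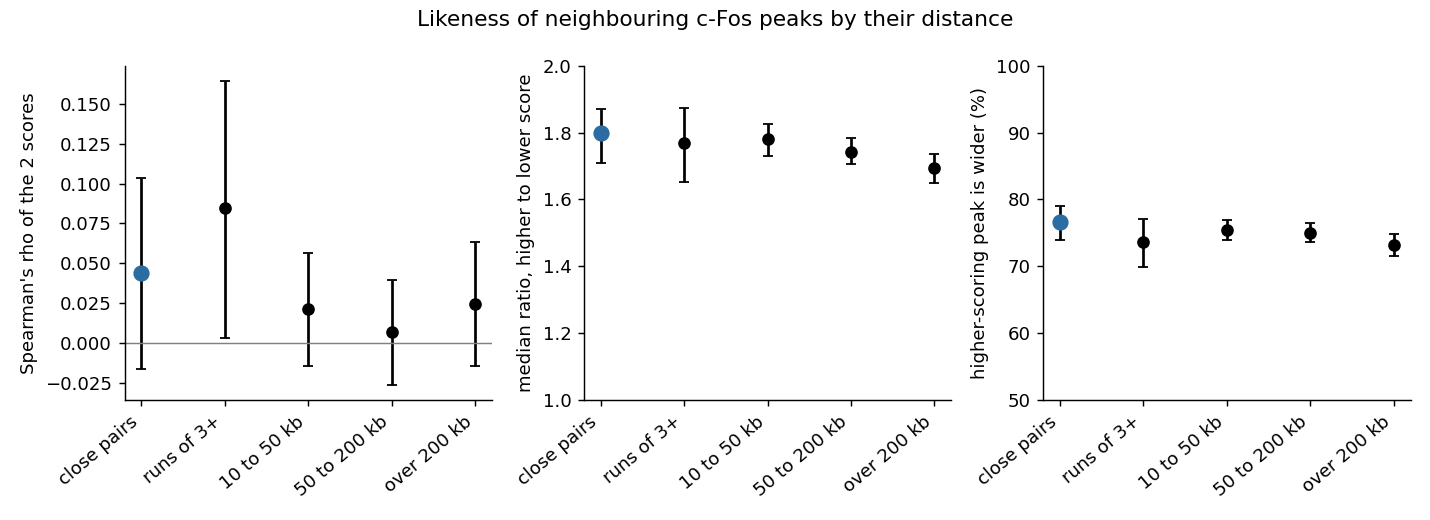
Likeness of 2 neighbouring c-Fos peaks in close pairs (blue) and, in black, in runs of 3 or more and in neighbours 10 to 50, 50 to 200 and over 200 kb apart; the panels show Spearman's rho of the scores, the median ratio of higher to lower score, and the percentage in which the higher-scoring peak was the wider, each with its 95% interval. The close pairs stand beside the other classes in every panel, with a rho of 0.04, a ratio of 1.8 and a share of 76.5%.

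By summed width, the first pair outside chromosome 18 was on chromosome 6 at chr6:31030441-31032865 and chr6:31037428-31039462. It had widths of 2425 and 2035 bp and scores of 379.33 and 441.76. The second was the pair on chromosome 11 that also led by score. In the third, at chr3:96301336-96302380 and chr3:96303089-96305837, the right peak was 2749 bp wide and scored 765.65, while the left was 1045 bp wide and scored 112.9. Wide pairs thus included both a matched and an unmatched couple of scores.

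Likeness changed little with the centre spacing inside a pair. With the pairs divided by spacing in steps of 2 kb, the median score ratio was 1.81 up to 2 kb (n = 192), 1.79 at 2 to 4 kb, 1.83 at 4 to 6 kb, 1.8 at 6 to 8 kb and 1.75 at 8 to 10 kb (n = 163), with intervals that overlapped throughout. The correlation of the scores lay between -0.02 and 0.08 in these steps. Over all pairs, rho of spacing with the score ratio was -0.01, with the higher score -0.02, with the lower score -0.03 and with the width ratio -0.01.

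The class of pairs with the narrowest gaps had the largest median score ratio of the 4 classes by gap. In the 102 pairs with a gap under 500 bp the median score ratio was 2.08 (1.81 to 2.29), against 1.78 (1.60 to 1.93) for gaps from 500 to under 2000 bp. It was 1.77 (1.68 to 1.91) from 2000 to under 5000 bp and 1.76 (1.63 to 1.90) for 5000 bp and over. Scores at least 2 times apart were found in 54 of the 102 (52.9%, 43.3 to 62.3), against 39.8%, 42.3% and 41.1% in the classes of wider gap and 40.7% of all neighbours. Widths were at most 1.2 times apart in 50 of them (49.0%, 39.5 to 58.6), against 61.5%, 62.9% and 60.2% in the classes of wider gap and 60.6% of all neighbours. For both measures the share of all neighbours lies outside the interval of the 102 pairs. The intervals of the score ratio overlap between the classes, the classes were chosen with the data in view, and the difference was not tested. The smallest gap, 14 bp, occurred in a pair on chromosome 7, at chr7:106734339-106735232 and chr7:106735247-106735891, with scores of 51.74 and 59.24. It occurred again on chromosome 2, at chr2:156313155-156313833 (61.17) and chr2:156313848-156314828 (184.99). A gap of 16 bp separated chr6:98898546-98899397 (60.62) from chr6:98899414-98900592 (182.65). The latter pairs each set a low peak against a companion of 3.02 and 3.01 times its score.

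Chromosomes differed in the share of their peaks that were paired. On chromosome 6, 206 of 817 peaks were in pairs (25.2%, 22.4 to 28.3), and on chromosome 18 it was 96 of 385 (24.9%, 20.9 to 29.5). The lowest autosomal share was on chromosome 2, with 142 of 902 (15.7%, 13.5 to 18.3), followed by chromosome 1 with 102 of 613 (16.6%, 13.9 to 19.8). These intervals treat peaks as independent although paired peaks come in couples, so they are too narrow, and the chromosomes were picked by their values. Denser autosomes tended only loosely to have more of their peaks in pairs: over the 19 autosomes, r between peaks per Mb and the paired share was 0.34 and rho 0.32, and r was 0.35 and rho 0.26 when chromosomes 12 and 19, whose densities lay farthest from the median, were left out. The density enters both measures. Median spacing on the autosomes lay between 3073 bp (chromosome 1) and 5478 bp (chromosome 15), and the median score ratio between 1.63 (chromosome 12) and 2.09 (chromosome 19).

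**Figure D5:**
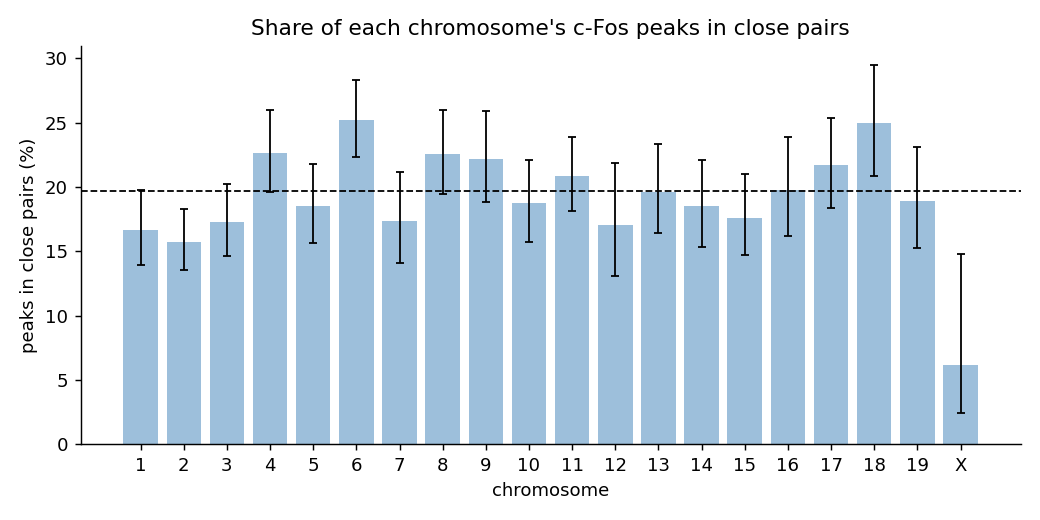
Percentage of each chromosome's c-Fos peaks that were in close pairs, with 95% Wilson intervals as bars; the dashed line marks the share over all 20 chromosomes (19.7%). Chromosome 6 (25.2%) and chromosome 18 (24.9%) are at the top, and chromosome X, with 4 paired peaks, is lowest.

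Chromosome X held 65 peaks and 2 pairs (4 peaks, 6.15%, 2.42 to 14.8). It had 0.41 peaks per Mb, against 2.41 (chromosome 12) to 6.57 (chromosome 19) on the autosomes. The first pair, at chrX:35781821-35782456 and chrX:35783995-35785051, had scores of 167.16 and 267.23 and widths of 636 and 1057 bp. The second, at chrX:157036829-157037719 and chrX:157041976-157042855, had scores of 52.11 and 53.51, near the lowest score of the list, and widths of 891 and 880 bp. Both stood far from other peaks, at 1857 kb and 645 kb from the nearest. With 2 pairs, no comparison of likeness on X is possible.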

How the data were processed

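The authors deposited 1 list of c-Fos ChIP peaks with a sequence name, start, end, peak name and score; this deposited score has no stated scale. Per the submitters' processing notes, CASAVA 1.8.2, MACS 1.4.1 and build mm9 were used, with no role given; the peak names carry the prefix of MACS. The sources used here do not give the peak threshold or say whether the input library served as control. If the caller set its background from surrounding reads, the score of a peak could depend on its neighbour; this was not tested. The lowest score was 50.01, so weaker companions are not listed and some peaks counted as single may have one.

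From the list, centres were (start + end)/2, neighbours within 10000 bp were joined, and runs of 2 were kept. Consecutive peaks of a chromosome 10 to 50, 50 to 200 and over 200 kb apart served as background. Medians have order-statistic intervals, shares Wilson intervals and correlations Fisher intervals (95%). Members, classes and lists were chosen with earlier results of these data known. Named pairs, outside chromosome 18, were the 5 with the highest lower score, the 5 with the largest score ratio, the 3 with the smallest gap, the 3 just inside and 3 just outside 10000 bp, the 3 of largest summed width and those on X. Coordinates are 1-based in mm9. The gene and promoter tables at hand are on GRCm38.p6, so 0 peaks were joined to genes or sequence. The procedures were tested on simulated data. Software was Python 3.11.15 with scipy 1.17.1, numpy 2.4.6, matplotlib 3.10.9 and pandas 2.3.3.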

Additional observations from a re-analysis of the deposited data

How the results depend on the processing

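In all, 59 values were recomputed, of which 43 lay inside the interval of the main value or within 1.5 times the count, and 16 moved. The correlation of scores within pairs lay between 0.01 and 0.08 under all alternatives tried. Its interval was wholly positive for Pearson's r on log10 scores (0.004 to 0.12) and for joining facing edges (0.004 to 0.12). Under the others it included negative values. Several moves were set by the alternative itself. Joining within 5000 bp gave 689 pairs with a median spacing of 2641 bp, joining within 20000 bp a median spacing of 8089 bp, and joining facing edges within 10000 bp a spacing of 5165 bp. Leaving out pairs with edges within 2000 bp raised the spacing to 6250 bp. A score of at least 100 left 382 pairs, with a score ratio of 1.53, a width ratio of 1.13, the higher-scoring peak wider in 72.5% and a median score of 172.8. Without the widest 5% of peaks (1307 bp or more) the width ratio was 1.13 and the median score 101.8. The 413 pairs with no other centre within 50000 bp had a score ratio of 1.70, with the higher-scoring peak wider in 72.6%; the cause was not tested. Dividing each score by the median of its width decile gave a score ratio of 1.45. The planned motif and gene alternatives were not run, as they need mm9 sequence or annotation. The unknown depth leaves the number of companions under the lowest score unmeasured. No paired analysis was possible because 1 ChIP library was analysed.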
